A study of Mus musculus with 17 samples.

Results

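Stat3, Socs3, Nfkbia, Nfkb1, Nfkb2, Rela, Relb and Tnfaip3, the core genes of STAT3 and NF-kappaB signalling, were followed in single-cell libraries of mouse small intestinal organoids. These 8 of the 26422 genes in the count tables were chosen by gene symbol. No cut-off on a measured value was applied, but earlier results of these libraries, including their response to KPT-330, were known when the genes were proposed, so the tests below describe these libraries and are not independent evidence. Cells were selected on the authors' list of kept cells, which holds 19877 of 26229 barcodes. The organoids were grown from crypts of male and female C57BL/6 mice without a genetic change, and each library holds dissociated cells of many pooled organoids. At day 0 there were 2 libraries from ENR+CV, a medium of EGF, Noggin and R-spondin with CHIR99021 and valproic acid that keeps cultures rich in stem cells. From day 0.25 on, the organoids were in ENR+CD, in which DAPT takes the place of valproic acid and the cultures turn towards Paneth cells. Of these ENR+CD libraries, 7 had no drug (control) and 8 were exposed to 160 nM KPT-330. Each condition had 1 library at days 0.25, 1, 2 and 4 and 2 libraries at day 6, and at day 3 there was 1 control library and 2 with KPT-330. The labels do not say what replicate numbers 1 and 2 stand for, so p-values measure the spread between these libraries, which may be technical. Where the KPT-330 effect was fitted over several days, that spread also holds differences of the effect between days, since most days had 1 library per condition.

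STAT3 is a transcription factor that waits in the cytoplasm until JAK kinases at cytokine receptors phosphorylate it, and in the gut epithelium it answers to interleukin-22 and relatives of interleukin-6. Socs3 is one of its target genes and encodes an inhibitor that closes the loop. NF-kappaB is a family of dimers built from Rela, Relb, Rel and the processed products of Nfkb1 and Nfkb2. IkappaB-alpha, encoded by Nfkbia, holds such dimers inactive, and Tnfaip3 encodes A20, a ubiquitin-editing enzyme that shuts off the kinases upstream. Nfkbia, Nfkb2, Relb and Tnfaip3 are themselves known NF-kappaB target genes. KPT-330 blocks XPO1 (exportin 1), the carrier that moves many proteins out of the nucleus, among them IkappaB-alpha. Only RNA was measured here, so neither the place nor the activity of these proteins is known.

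The 8 genes lie on 7 chromosomes of GRCm38 (the mm10 build to which the authors aligned) and are protein-coding in GENCODE vM21. Stat3 spans chr11:100885098-100939540 and Socs3 chr11:117966079-117970047, both on the minus strand. Nfkbia spans chr12:55489410-55492647 and Tnfaip3 chr10:19000910-19015657, also on the minus strand. Of the subunit genes, Nfkb1 spans chr3:135584655-135691547 and Relb chr7:19606217-19629438 on the minus strand, while Nfkb2 spans chr19:46304320-46312385 and Rela chr19:5637483-5648130 on the plus strand.

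Bases just upstream of a gene's start are shown because most of these genes are themselves known targets of STAT3 or NF-kappaB. RefSeq start sites (GRCm38.p6) matched 6 of the 8 genes with 9 windows of 250 bases, and gave none for Nfkb1 and Relb. These starts coincide with the ends of the printed spans for Stat3 and Nfkbia but lie inside the spans of the other 4 genes, so their windows overlap the annotated genes. Both strands were searched for the STAT motif TTCNNNGAA and for the kappaB consensus site, matches of which may overlap. Of all 32851 such windows, 7.02% hold at least 1 STAT match and 7.251% at least 1 kappaB match, and 1.029% hold at least 2 kappaB matches. The windows of Stat3, Rela and the second start of Tnfaip3 hold neither motif, and those of 2 further Nfkb2 starts hold 1 kappaB match each. A match is a string of letters and not a bound site, and the absence of one says only that these letters are not in this window. The windows of Stat3 (chr11:100939541-100939790, minus strand) and Nfkbia (chr12:55492648-55492897, minus strand) are given whole, 5′ to 3′, with matches in capitals.
Stat3: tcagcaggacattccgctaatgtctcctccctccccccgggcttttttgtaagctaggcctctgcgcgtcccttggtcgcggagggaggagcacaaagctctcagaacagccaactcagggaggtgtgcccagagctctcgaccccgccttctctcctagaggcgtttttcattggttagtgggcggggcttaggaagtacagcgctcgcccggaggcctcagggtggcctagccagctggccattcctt
Nfkbia: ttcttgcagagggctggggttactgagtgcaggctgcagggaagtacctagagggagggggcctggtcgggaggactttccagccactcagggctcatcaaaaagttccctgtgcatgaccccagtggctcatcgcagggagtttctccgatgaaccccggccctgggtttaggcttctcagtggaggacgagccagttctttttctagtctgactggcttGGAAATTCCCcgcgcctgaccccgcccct

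Shorter stretches of 30 bases carry the matches of the other genes, with the match again in capitals. The main Tnfaip3 start has kappaB matches 125 to 116 bases (chr10:19015516-19015545) and 12 to 3 bases (chr10:19015411-19015440) before it, shown in that order. Socs3 has a STAT match 154 to 146 bases before its start (chr11:117969502-117969531). The first Nfkb2 start has a STAT match at 148 to 140 bases (chr19:46304578-46304607), an overlapping pair of kappaB matches at 39 to 29 bases (chr19:46304688-46304717) and another at 11 to 2 bases (chr19:46304707-46304736). Nfkb2 is transcribed from the plus strand and the other genes shown from the minus strand.
Tnfaip3, far match: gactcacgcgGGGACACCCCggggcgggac
Tnfaip3, near match: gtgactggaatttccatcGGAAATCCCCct
Socs3: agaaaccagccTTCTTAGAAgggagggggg
Nfkb2, STAT: ctgggcgagccTTCCCCGAAaggggcgcgc
Nfkb2, kappaB pair: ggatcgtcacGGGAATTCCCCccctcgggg
Nfkb2, kappaB near start: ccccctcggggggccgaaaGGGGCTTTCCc

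The kept cells gave 3458887 to 12433109 UMIs (unique molecular identifiers, each counting 1 transcript) per library, with a median of 4710 per cell, and 14 cell barcodes occur in 2 libraries. Levels are summed UMI counts per 1000000 UMIs (CPM), with library totals scaled by TMM factors unless stated otherwise. These factors ran from 0.7073 in KPT-330 replicate 1 of day 6 to 1.2044 in ENR+CV replicate 2. Mitochondrial UMIs made up 7.97% to 13.6% in control and 7.11% to 16.8% with KPT-330. Clusters named by marker genes gave 2439 stem I-like, 1926 stem II-like, 2363 stem III-like, 479 early secretory-like, 6209 Paneth lineage-like, 2434 enteroendocrine-like and 3168 enterocyte lineage-like cells. A further 135 goblet-like cells were too few to test and 724 cells stayed unnamed. Epithelial markers summed to 3607–4601 CPM in control and 3404–4655 with KPT-330, while the leukocyte markers Ptprc and Cd3e had 3 and 4 UMIs in all cells together. Fibroblast markers summed to at most 2.68 and endothelial markers to at most 2.82 CPM in any library.

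Over all cells, KPT-330-treated organoids held more RNA of Stat3, of the NF-kappaB inhibitors Tnfaip3 and Nfkbia, and of the subunit genes Nfkb2 and Rela than control organoids of the same day. The rise was 0.75 on the log2 scale for Tnfaip3, 0.64 for Stat3, 0.61 for Nfkb2, 0.43 for Nfkbia and 0.25 for Rela, and under TMM scaling KPT-330 was higher at 6 of 6 time points for each. Scaled to total UMIs, that count stayed at 6 for Stat3, Tnfaip3 and Nfkb2 and was 3 for Nfkbia and Rela. How many of all genes tested kept the same direction at every time point, or separated the groups without overlap, was not counted here or below. Socs3, Relb and Nfkb1 did not pass the test. Thus 5 of the 8 genes passed an adjusted p of 0.05, all of them higher, where 28.6% of all 12811 genes tested passed, 1841 higher and 1820 lower. The median log2 fold change of the 8 was 0.42, against -0.0024 over all genes tested. In sums over all cells, a smaller share of a cell type and less RNA per cell cannot be told apart.

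Stat3 separated the conditions most clearly. In control it measured 52.3 CPM at day 0.25, 70.1 at day 1, 75.1 at day 2, 72.2 at day 3, 82.5 at day 4, and 85.8 and 82.1 at day 6. With KPT-330 it measured 139.8, 93.0 and 105 at days 0.25, 1 and 2, then 115 and 129.9 at day 3, 112 at day 4, and 106 and 119 at day 6. Every treated library lay above every control library, and above the ENR+CV libraries at 81.6 and 79.3. Stat3 was the only gene of the 8 for which this held, and the share of all genes that did so was not counted. Under total UMIs the groups overlapped, with KPT-330 replicate 1 of day 6 at 75.0 and the highest control library at 95.2. The widest gap came first, with a 2.67-fold higher level at day 0.25, where control was at its lowest, and the ratio lay between 1.33 and 1.69 at the later days. The log2 fold change was 0.64 ± 0.11 (SE, adjusted p = 0.00142), and it stayed past the threshold in each of 21 alternative treatments of the data, at 0.37 to 0.69.

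Socs3, the feedback inhibitor that STAT3 induces, did not follow. Its level was 10.2 to 16.4 CPM in control (median 11.8) and 6.98 to 19.7 with KPT-330 (median 13.9), so the groups overlapped widely. It was higher with KPT-330 at 4 of 6 time points and lower at days 1 and 2, with a log2 fold change of 0.16 ± 0.16 (adjusted p = 0.494). The KPT-330 library of day 1, with 25 UMIs of Socs3, was the lowest of all 17.

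Among the inhibitors of NF-kappaB, Tnfaip3 rose at every time point. It measured 9.35, 12.8, 10.3, 7.5 and 10.7 CPM in the control libraries of days 0.25 to 4, and 11.7 and 11.6 at day 6. The KPT-330 libraries measured 16.9, 14.8 and 15.9 at days 0.25 to 2, 10.5 and 12.3 at day 3, 24.8 at day 4, and 17.1 and 24.98 at day 6. Both ENR+CV libraries, at 8.01 and 6.79, lay below all treated libraries, and the treated libraries of day 3 fell within the control range. The ratio ran from 1.16 at day 1 to 2.31 at day 4, with a log2 fold change of 0.75 ± 0.13 (adjusted p = 0.00129).

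Nfkbia behaved differently over time. In treated organoids it stayed within 90.2 to 115.6 CPM over all 8 libraries, whereas control measured 74.3, 85.7 and 90.5 at days 0.25, 1 and 2, dropped to 42.3 at day 3 and 64.1 at day 4, and measured 102 and 90.8 at day 6. The ratio was therefore 2.21 at day 3 and 1.80 at day 4 but 1.01 to 1.27 at the other days, and the single control library of day 3 was the lowest of all 17. The log2 fold change of 0.43 ± 0.13 (adjusted p = 0.0243) no longer passed without day 3 (0.29, adjusted p = 0.0945) or without day 4 (0.35, adjusted p = 0.0792).

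The subunit genes are given in turn, and no test compared them with each other. Nfkb2, which encodes the precursor of p52, measured 11.6, 24.5, 28.8, 22.1 and 29.6 CPM in control at days 0.25 to 4 and 40.6 and 38.2 at day 6. With KPT-330 it measured 18.9, 27.9 and 45.4 at days 0.25 to 2, 37.1 and 38.3 at day 3, 54.1 at day 4, and 65.6 and 43.7 at day 6. The gene climbed with time in both conditions and was above control within each day, with a log2 fold change of 0.61 ± 0.10 (adjusted p = 0.00142). Rela, the main activating subunit, ranged from 32.8 to 49.8 in control and from 35.5 to 61.2 with KPT-330. Its difference was small, 0.25 ± 0.08 (adjusted p = 0.0237), with a ratio of 1.01 at day 2 and 1.42 at day 3.

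Relb, the partner of p52, was level with or below control at days 0.25 and 1 (ratios 0.982 and 0.785) and 2.09 times higher at day 3, where control was at its lowest level of 11.8. Over all days its log2 fold change was 0.41 ± 0.16 (adjusted p = 0.0665), and without the libraries of days 0.25 and 1 it was 0.59 (adjusted p = 0.0204). Nfkb1, which encodes the precursor of p50, had the smallest difference of the 8 under TMM scaling, at 42.4 to 70.4 in control and 44.6 to 63.5 with KPT-330 (log2 fold change 0.00 ± 0.06, adjusted p = 0.978). Its level was highest at day 0.25 in both conditions.

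**Figure D1:**
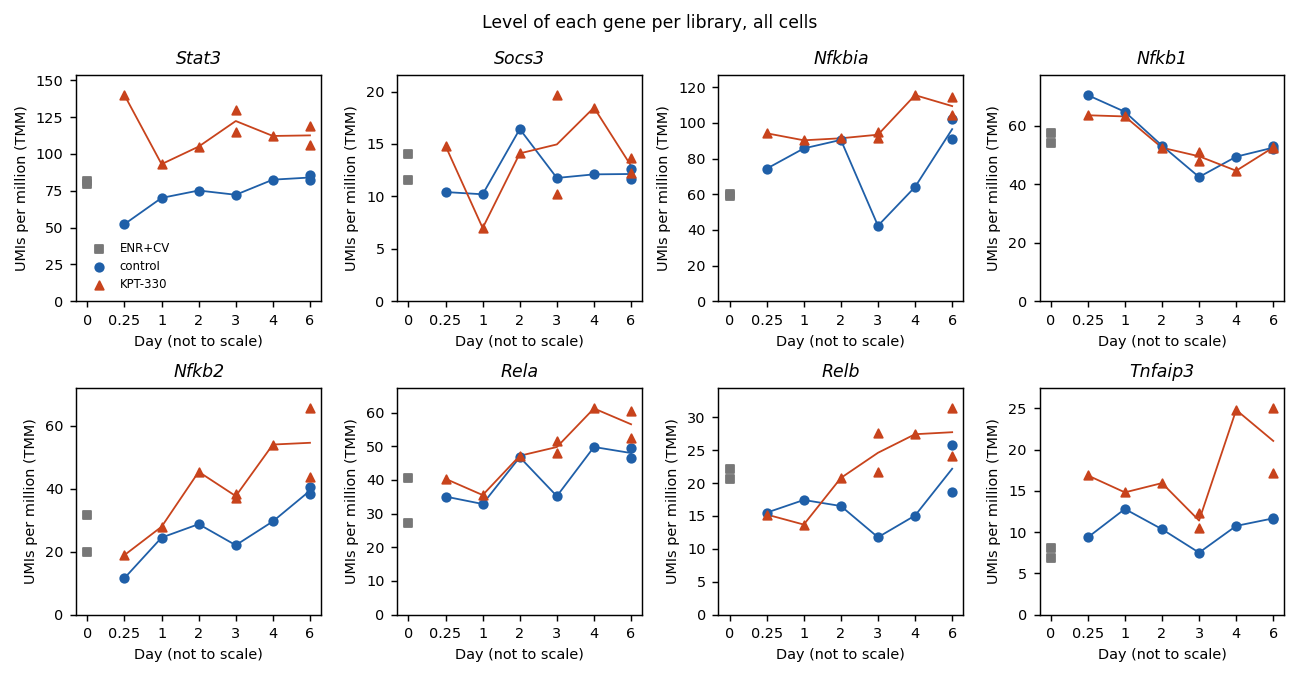
Level of each of the 8 genes in CPM after TMM scaling (y axis, from 0) by day (x axis, evenly spaced and not to scale), with 1 symbol per library and lines through the mean of each day. Triangles (KPT-330) lie above circles (control) at all 6 time points for Stat3, Nfkbia, Nfkb2, Rela and Tnfaip3 (at 3 for Nfkbia and Rela if scaled to total UMIs), and squares show the 2 ENR+CV libraries of day 0.

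The choice of scaling bears on these differences. A set of 20 genes that each hold over 0.5% of some library took 24.2% to 33.5% of UMIs in control and 26.8% to 49% with KPT-330. When libraries were scaled to their total UMIs, the median over all genes tested shifted to -0.27, and the share of higher genes among those called went from 50.3% to 8.76%. On that scale each gene was tested against no change, not against the lower median. Stat3 (0.37), Tnfaip3 (0.49) and Nfkb2 (0.33) still passed as higher, Nfkbia (0.16) did not and Rela turned to -0.02. Nfkb1 (-0.26, adjusted p = 0.0256) passed as lower, though its value lay near the median of all genes. With the 20 genes left out of the totals the all-gene median was -0.14, and Nfkbia (0.29, adjusted p = 0.0616) and Rela (0.11) missed the threshold.

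Other quantities also moved with treatment. Of 19 immediate-early and dissociation genes such as Fos, Jun and Egr1, 13 passed as higher with KPT-330 and none as lower, where 14.4% of all genes tested passed as higher. Their summed level was 3016 to 7542 CPM in control and 3663 to 9823 with KPT-330. Immune markers summed to 9.02–35.5 and 7.44–73.2 CPM, with Lyz2, which Paneth cells also express, giving 2277 of their UMIs. Paneth lineage-like cells made up a median of 30% of cells in control and 46.5% with KPT-330, enterocyte lineage-like cells 10.3% and 20.8%, and enteroendocrine-like cells 17.1% and 8.62%. Their part in the sums over all cells was not tested. The comparisons within single cell classes given further on are not set by the shares of the classes, but shares of clusters within a class also shifted. Comparisons that join classes also depend on the shares of the joined classes.

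The share of cells with at least 1 UMI of a gene was compared after each cell was thinned to 2000 UMIs, which left out 1060 shallower cells. Stat3 was then seen in 10.7% to 17.2% of cells per control library (median 14.3%) and in 13.0% to 25.4% with KPT-330 (median 18.5%), and before thinning the medians were 33.3% and 35.9%. Tnfaip3 was seen in a median of 1.82% and 2.77% of thinned cells. For Nfkb1 the share was lower with KPT-330, at a median of 8.09% against 11.5%. Its TMM-scaled mean level over all cells was 55.02 CPM in control and 53.5 with KPT-330, but thinned shares follow total UMIs. Scaled to total UMIs, Nfkb1 was higher with KPT-330 at 0 of 6 time points. These shares reflect how many cells of each class a library holds as well as the level in each cell, and no class was known to lack these genes, so the share that free RNA gives was not tested.

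The early response was examined in the stem II-like class joined with the stem III-like class at days 0.25, 1 and 2, with 3 libraries per condition. In these cells Stat3 was again higher, by 1.12 ± 0.16 on the log2 scale (adjusted p = 0.00106). The control libraries measured 52.1, 51.6 and 54.5 CPM at days 0.25, 1 and 2, and the KPT-330 libraries 144.7, 93.7 and 85.9. Control was flat while the treated level was highest at day 0.25, so the gap narrowed from day to day. Of the 8 genes only Stat3 passed, where 1.25% of 9692 genes did, and it passed in each of 11 alternatives at 0.77 to 1.26.

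Nfkb2 came next in these early stem-like cells. It measured 12.3, 19.99 and 14.7 CPM in control and 21.97, 28.7 and 42.9 with KPT-330, so it was higher at each of the 3 days. The log2 fold change of 0.89 ± 0.24 missed the threshold (adjusted p = 0.077). Nfkbia had a log2 fold change of 0.41 ± 0.15 (adjusted p = 0.194), and Rela, Tnfaip3, Socs3, Nfkb1 and Relb had values between -0.10 and 0.26 with adjusted p of 0.607 or more.

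Within cell classes over all days, 50 pairs of a gene and a class could be tested and 7 passed, each of them higher with KPT-330. Stat3 accounted for 4, in Paneth lineage-like cells and the 3 stem-like classes, and Nfkbia, Nfkb2 and Tnfaip3 passed in Paneth lineage-like cells alone. No gene of the 8 passed in enterocyte lineage-like, enteroendocrine-like or early secretory-like cells. The share of all genes that passed was 4.87% in stem I-like, 1.86% in stem II-like, 0.49% in stem III-like, 5.97% in Paneth lineage-like, 4.15% in enterocyte lineage-like, 2.01% in enteroendocrine-like and 0.264% in early secretory-like cells. That a gene passed in one class and not in another does not show that the classes differ.

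In stem I-like cells, whose marker list holds Lgr5 and Axin2, Stat3 ranged from 75.3 to 95.5 CPM in 7 control libraries and from 98.4 to 244.4 in 7 with KPT-330, without overlap. The log2 fold change was 0.73 ± 0.14 (adjusted p = 0.000298). Stem II-like cells could be compared at days 0.25 and 1 only, with 2 libraries per condition in all, so this test rests on few libraries. There the log2 fold change was 0.95 ± 0.21 (adjusted p = 0.00112). With clusters made from log-normalized counts it was 0.71 and missed the threshold (adjusted p = 0.098). In cycling stem III-like cells it was 1.102 ± 0.21 (adjusted p = 0.0147) over days 0.25 to 3. The last of these days went the other way, at 35.2 in 20 treated cells (6 UMIs) against 39.9 in control. The smaller stem III-like cluster, led by Fam111a and Mki67, held 9.74% of the class in control and 30.2% with KPT-330.

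In Paneth lineage-like cells, the class with the most cells and the highest share of all genes past the threshold (5.97%), 4 of the 8 passed. All 8 had a positive log2 fold change, where 49.8% of all genes tested in the class did. Stat3 measured 66.5 to 87.6 CPM in 6 control libraries and 64.9 to 118.5 in 7 treated ones, and the treated library of day 1, with 30 such cells and 9 UMIs, lay below all control libraries while the other 6 lay above them. Its log2 fold change was 0.46 ± 0.10 (adjusted p = 0.00905). Nfkb2 measured 27.1, 24.0, 21.9 and 24.8 in control at days 1 to 4 and 47.8 and 47.1 at day 6, while treated libraries measured 36.1 to 64.9. Means were higher with KPT-330 at 5 of 5 days, although replicate 2 of day 6, at 46.1, lay just below both control libraries of that day. Its log2 fold change was 0.62 ± 0.14 (adjusted p = 0.00984).

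For the inhibitors in Paneth lineage-like cells, Tnfaip3 ranged from 4.51 to 13.2 in control and from 7.95 to 23.7 with KPT-330, and was higher at 5 of 5 days (0.76 ± 0.19, adjusted p = 0.0208). Nfkbia ranged from 40.5 to 107.4 and from 72.0 to 118.7 and was also higher at 5 of 5 days (0.47 ± 0.13, adjusted p = 0.0399). Rela (0.39 ± 0.12, adjusted p = 0.0569) and Relb (0.53 ± 0.17, adjusted p = 0.0738) fell just short. With total UMIs as the scale Stat3 (0.30, adjusted p = 0.0875), Nfkbia (0.31, adjusted p = 0.153) and Tnfaip3 (0.59, adjusted p = 0.0576) no longer passed in these cells. Nfkbia also missed the threshold where 50 cells per library were required (adjusted p = 0.0697), and Tnfaip3 with classes from marker scores (adjusted p = 0.0535). Within this class the mature cluster led by alpha-defensins held 43.6% of control and 47.1% of treated cells. The cluster led by Lyz1 and Lyz2 held 23.2% and 33.7%, and that led by Spink4 and Tff3 held 33.2% and 19.1%. The part of these shifts in the values above was not tested.

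In enterocyte lineage-like cells no gene of the 8 passed, and the values pointed both ways. Nfkbia was lower with KPT-330 at 5 of 6 days, at 97.8 to 216.1 CPM in 7 control libraries and 59.4 to 160.8 in 8 treated ones (-0.36 ± 0.14, adjusted p = 0.149). Rela was lower at 6 of 6 days (-0.34 ± 0.13, adjusted p = 0.15), Stat3 was higher at 3 of 6 (0.17 ± 0.15, adjusted p = 0.632), and Tnfaip3 was higher at 5 of 6 (0.57 ± 0.23, adjusted p = 0.176). The make-up of the class differed: the largest cluster among treated cells was led by Apoa4, Apoa1 and Lct (44.4%, against 26% of control), and in control it was the cluster led by Fabp1 (49.1%).

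A comparison of the KPT-330 effect between enterocyte lineage-like and Paneth lineage-like cells of the same libraries was added after the values above had been seen. The difference was -0.81 ± 0.26 for Nfkbia, -0.71 ± 0.24 for Nfkb2 and -0.68 ± 0.24 for Rela, with adjusted p of 0.336, 0.387 and 0.412. None of the 8 genes passed, where 0.223% of 11234 genes did. At an unadjusted p under 0.05, 6 of the 8 genes had a lower KPT-330 effect in enterocyte lineage-like cells. The effect differed at that level for 7.92% of all genes. A test of all other named cells against the 3 stem-like classes together called 0 of the 8 genes and 0.00838% of 11931 genes. Tnfaip3 came nearest, with a KPT-330 effect 0.73 ± 0.36 larger outside the stem-like classes (adjusted p = 0.59).

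Enteroendocrine-like cells, the hormone-producing lineage, had the highest Stat3 level of all classes without drug. Stat3 measured 109.8 to 131.7 CPM in 6 control libraries and 138.6 to 179.8 in 7 with KPT-330, which did not overlap, and the log2 fold change of 0.30 ± 0.11 missed the threshold (adjusted p = 0.201). Socs3 went the other way in these cells, lower at 5 of 5 days on 117 and 35 UMIs in all (-0.66 ± 0.35, adjusted p = 0.41). In early secretory-like cells Stat3 measured 113.8, 90.8 and 82.1 in control at days 0.25, 1 and 2 and 194.2, 150.2 and 135.1 with KPT-330, a log2 fold change of 0.73 ± 0.21 that did not pass (adjusted p = 0.243).

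**Figure D2:**
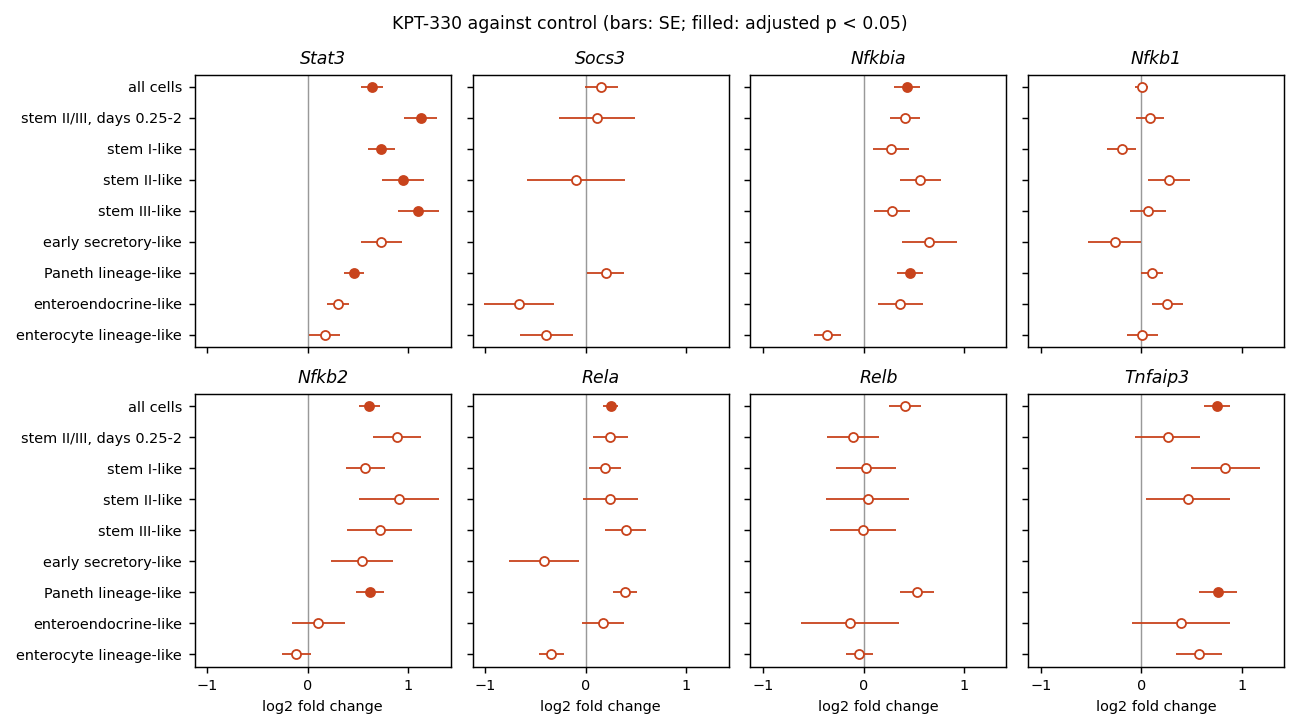
Log2 fold change of KPT-330 against control (x axis) for each gene, with 1 line for all cells, 1 for the early stem-like cells and 1 for each cell class over its testable days. Bars are SE, filled points have an adjusted p under 0.05, and a missing point was not tested. Stat3 is filled on 6 of 9 lines, and Nfkbia is negative in enterocyte lineage-like cells at -0.36.

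Whether the effect differed between days 3, 4 and 6 and days 0.25, 1 and 2 was tested as an interaction over all cells. The deposited gene list had a longer form for the libraries of days 0.25 and 1 and a shorter form for those of days 2 to 6. Differences over time between these sets of days, here and above, therefore cannot be told apart from whatever else differs between the forms. No gene of the 12811 passed in edgeR (0.0%), where 1335 had an unadjusted p under 0.05, while DESeq2 called 56 genes. Of the 8 genes Relb had the largest late increase, 0.64 ± 0.28 (adjusted p = 0.45), followed by Nfkbia at 0.48 ± 0.23 (adjusted p = 0.486). The latter reached 0.83 (adjusted p = 0.0387) without day 6. Stat3 had -0.23 ± 0.22, and 0.09 without day 0.25.

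At day 6, the one time point with 2 libraries in each condition, 0 of the 8 genes passed in edgeR, where 168 of 13453 genes (1.25%) did. Tnfaip3 had a log2 fold change of 0.85 ± 0.25 (adjusted p = 0.126) and Stat3 one of 0.42 ± 0.16 (adjusted p = 0.22). Under TMM scaling both were higher in each treated library than in each control library, which did not hold under total UMIs for replicate 1 (Stat3 at 75.0 against 87.2 and 87.7, Tnfaip3 at 12.1 against 11.9 and 12.4), and 2 of the 8 genes had an unadjusted p under 0.05. DESeq2 called 194 genes at this day.

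Differentiation without drug was compared between control at day 6 and ENR+CV at day 0, where 39.9% of 13453 genes passed. Of the 8 genes Nfkbia passed, rising from 59.1 and 60.2 to 102 and 90.8 CPM (0.70 ± 0.15, adjusted p = 0.00444). Tnfaip3 (0.67 ± 0.26, adjusted p = 0.0621), Rela (0.48 ± 0.20, adjusted p = 0.0719) and Nfkb2 (0.59 ± 0.24, adjusted p = 0.0737) had positive values that missed the threshold. The ENR+CV libraries lay apart for Nfkb2 (19.8 and 31.8) and Rela (27.2 and 40.5), and without replicate 2 both passed, at 0.99 (adjusted p = 0.0277) and 0.81 (adjusted p = 0.0172). Stat3 stood at 81.6 and 79.3 at day 0 and at 85.8 and 82.1 at day 6 (0.06 ± 0.16, adjusted p = 0.772), after a dip to 52.3 in the control library of day 0.25. The ENR+CV libraries come from both forms of the deposited gene list, of which only the 21833 shared genes were tested.

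Without drug, the 8 genes had different leading cell classes. These levels, in CPM of the UMIs of a class without TMM scaling, are means ± SD over the ENR+CV and control libraries with at least 20 such cells, and are given as a description without a test. Neighbouring classes in the order of a gene are called apart below where their means differ by more than the larger of the SDs, which held for 5 of 48 neighbours. Goblet-like cells were too few for these orders. With classes from marker scores they were measured in 5 libraries. There they led for Nfkb2 (74 ± 32.1, next early secretory-like at 38.1 ± 12.7) and Tnfaip3 (19.8 ± 11.4, on 21 UMIs). For Nfkbia they came second (123 ± 69.6), near enterocyte lineage-like cells (138 ± 53.5). The steps called apart below thus hold for the cluster classes without goblet-like cells.

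Stat3 was highest in enteroendocrine-like cells at 117 ± 18.6 (n = 8 libraries), apart from early secretory-like cells at 86.9 ± 13.5 (n = 4). Stem I-like (86.6 ± 6.76), enterocyte lineage-like (82.8 ± 17.4) and Paneth lineage-like cells (82.5 ± 9.35) followed within their spread. Stem II-like cells (66.9 ± 26.8) came before stem III-like cells (57.9 ± 18.3, n = 9), which were last. Socs3 was highest in enterocyte lineage-like cells at 25.2 ± 11.5 (n = 9) and lowest in stem III-like cells at 7.66 ± 3.38, with no neighbours apart.

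Nfkbia was highest in enterocyte lineage-like cells, at 150 ± 44.8 (n = 9), apart from stem I-like cells at 72.1 ± 37.5 (n = 7). From there the order ran over Paneth lineage-like (71.9 ± 22.5), stem II-like (71.6 ± 15.9), stem III-like (65.9 ± 31.2), enteroendocrine-like (53.8 ± 22) and early secretory-like cells (46.1 ± 13.4) without a step beyond the spread. Tnfaip3 was between 9.07 and 13.6 in 6 classes, and only early secretory-like cells (4.24 ± 3.39, on 7 UMIs) lay apart below them.

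Of the subunit genes, Nfkb1 followed a stem-to-differentiated order. It was at 87.8 ± 9.97 in stem I-like, 85.7 ± 21.0 in stem III-like, 73.1 ± 13.8 in stem II-like, 69.9 ± 11.7 in early secretory-like and 66.9 ± 10.6 in enteroendocrine-like cells. Enterocyte lineage-like cells at 48.2 ± 11.3 and Paneth lineage-like cells at 33.6 ± 3.86 (n = 6) each lay apart below the class before them. Rela was highest in stem I-like cells at 62.9 ± 10.1 and lowest in enterocyte lineage-like cells at 37.4 ± 9.29, Relb was highest in enterocyte lineage-like cells at 37.7 ± 21.7 and lowest in Paneth lineage-like cells at 12.8 ± 3.82, and Nfkb2 ran from 42.3 ± 16.5 in early secretory-like to 23.9 ± 7.82 in enteroendocrine-like cells. For these 3 genes no neighbours lay apart.

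**Figure D3:**
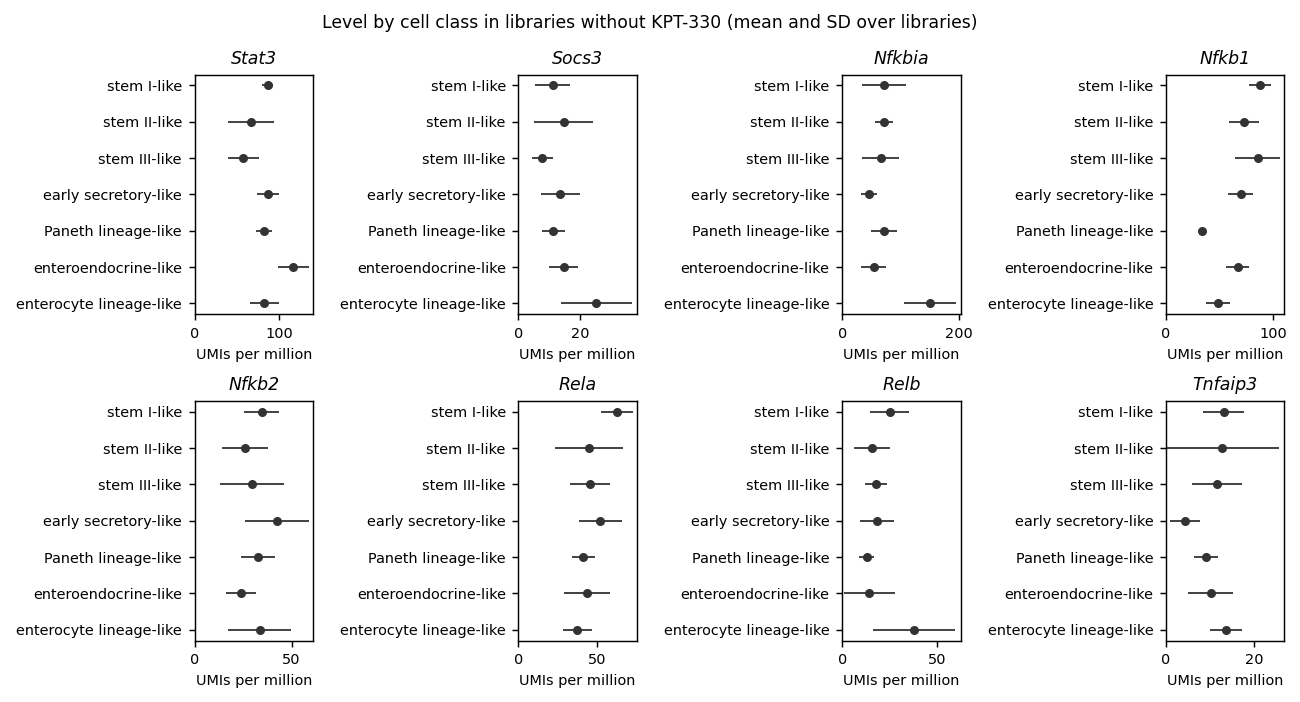
Level of each gene by cell class in libraries without KPT-330, in CPM of the UMIs of the class (x axis, from 0), as the mean (point) and SD (bar) over libraries with at least 20 cells of the class. Enteroendocrine-like cells lead for Stat3 (117) and enterocyte lineage-like cells for Nfkbia (150), and Nfkb1 falls from 87.8 in stem I-like to 33.6 in Paneth lineage-like cells.

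The rest of both pathways passed the test about as often as genes at large. Of 149 further genes in 9 lists of receptors, kinases, inhibitors, subunits and target genes, 117 could be tested over all cells, and 28 were higher and 7 lower with KPT-330. That is 29.9% of those tested, near the 28.6% of all genes. For the counts per list below, 14.4% of all genes tested passed as higher and 14.2% as lower. With total UMIs as the scale the split turned to 11 higher and 30 lower.

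In the STAT3 lists, 4 of 7 ligand receptors passed as higher and none as lower, 0 of 9 JAK kinases and other STATs as higher and 2 as lower, 2 of 14 inhibitors as higher, and 4 of 10 target genes as higher. Il22ra1 and Il10rb, the chains of the interleukin-22 receptor, rose by 0.64 ± 0.11 (adjusted p = 0.00116) and 0.54 ± 0.08 (adjusted p = 0.000538). Lifr, the receptor for leukaemia inhibitory factor, rose by 1.19 ± 0.27 from low counts, and Ghr, the growth hormone receptor, by 0.47 ± 0.09. Il6st, which encodes the shared gp130 chain, had -0.01 ± 0.07 (adjusted p = 0.944). Reg3g, an antimicrobial lectin, ranged from 20.1 to 200.3 CPM in control and from 42.9 to 238.1 with KPT-330 (0.93 ± 0.29, adjusted p = 0.0274). Among the inhibitors Socs2 rose by 0.59 ± 0.09 without overlap of the groups, at 13.2 to 19.2 and 19.8 to 26.7, and Socs6 by 0.25 ± 0.08, while Stat5b fell by 0.42 (SE 0.14, adjusted p = 0.0326).

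In the NF-kappaB lists, 1 of 4 ligands was higher and 2 lower, 3 of 13 receptors were higher and 1 lower, 4 of 23 adaptors and kinases and 2 of 16 subunits and inhibitors were higher with none lower, and of 21 target genes 8 were higher and 2 lower. Cxcl16, a membrane-bound chemokine, had the largest rise among the targets named, by 1.36 ± 0.21 (adjusted p = 0.000779), from 9.70–52.3 in control to 18.9–116.6 CPM. Ccl20 (1.18 ± 0.30), Cxcl10 (1.26 ± 0.31), Tnfaip2 (1.102 ± 0.21) and Birc3 (0.84 ± 0.19), 2 chemokines, a tumour necrosis factor-induced gene and an apoptosis inhibitor, also rose. Ccl20 and Tnfaip2 are also on a list of M cell markers, of which 4 of 6 could be tested, 3 passing as higher and 1 as lower, while the defining markers Spib and Gp2 had 7 and 3 UMIs in all. The list's sum was 91.1 to 294 CPM in control and 99.6 to 154.6 with KPT-330, and its part in the rise was not tested. Tapbp (0.40 ± 0.09), which helps to load MHC class I, and Pigr (0.66 ± 0.22), the carrier of immunoglobulin A, rose too. Ccnd1, the cell cycle gene cyclin D1, fell by 0.54 (SE 0.17, adjusted p = 0.0282), and it was the only one of these genes past the threshold in the early stem-like cells, at -0.94 ± 0.18 (adjusted p = 0.0138).

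Of the receptors, Tnfrsf21 rose by 0.71 ± 0.09 (adjusted p = 0.000387) and Tnfrsf12a by 0.36 ± 0.13, whereas Cd40 fell by 2.23 (SE 0.36, adjusted p = 0.000871), on 119 UMIs in control and 18 with KPT-330. The death ligand Tnfsf10 fell by 1.19 (SE 0.21, adjusted p = 0.00172). The adaptor Ticam1 (0.45 ± 0.11), the kinase Ripk1 (0.23 ± 0.06) and the deubiquitinase Cyld (0.43 ± 0.08) rose. In all, 23 of the 35 genes past the threshold kept one direction at all 6 time points under TMM scaling and are those named here with a rise or a fall. Of these 23, 14 stayed past the threshold with total UMIs as the scale, where Ripk1 and Socs6 changed sign, and 19 with the 20 most abundant genes left out of the totals.

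Within classes, fewer of these 23 genes passed. From 11 (early secretory-like) to 20 (Paneth lineage-like) of them could be tested per class. Across the same classes, 0.264% to 5.97% of all genes passed. The 23 were chosen on sums over the same cells, so their direction within classes is not independent evidence. Cxcl16 was higher in stem II-like (1.68 ± 0.44), Paneth lineage-like (0.93 ± 0.21) and enterocyte lineage-like cells (0.66 ± 0.16). Ccnd1 was lower in stem I-like (-1.54 ± 0.32), stem II-like (-1.03 ± 0.21), stem III-like (-0.90 ± 0.19) and Paneth lineage-like cells (-0.81 ± 0.19), and it is among the leading genes of the stem II-like cluster. Tapbp passed as higher in stem I-like and Paneth lineage-like cells, Birc3 in Paneth lineage-like, Socs2 in enterocyte lineage-like cells, and Cd40 as lower in enteroendocrine-like cells.

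**Figure D4:**
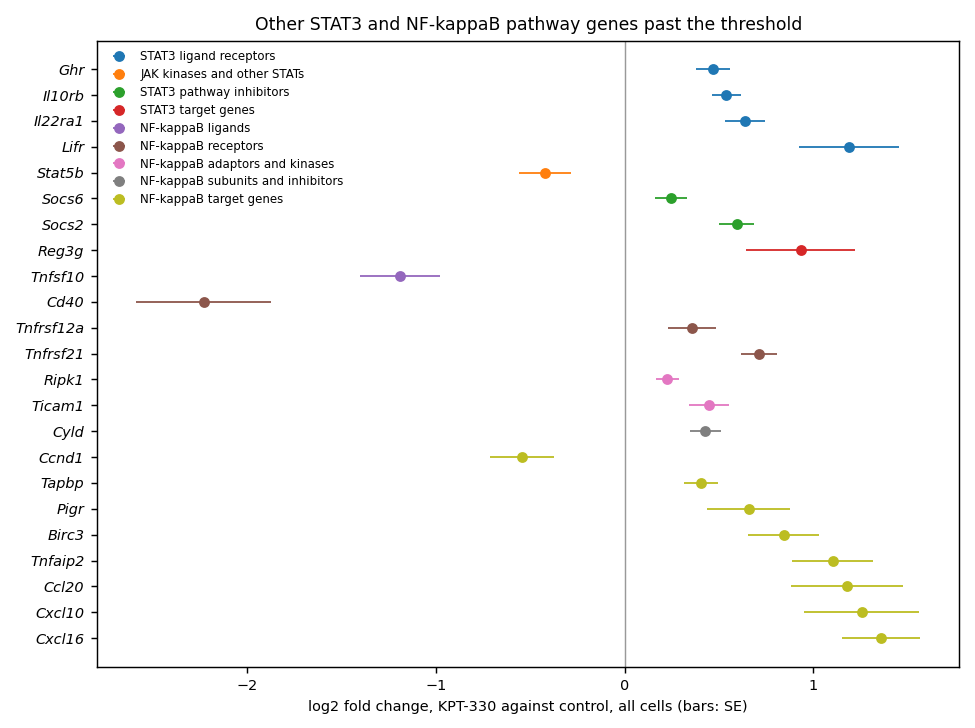
Log2 fold change of KPT-330 against control over all cells (x axis, bars SE) for the 23 other pathway genes that passed an adjusted p of 0.05 and kept one direction at all 6 time points, coloured by list. Cxcl16 lies highest at 1.36 and Cd40 lowest at -2.23.

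Over the 17 libraries, which differ in depth, day and treatment, genes whose log2 level closely tracked that of a member are given as a description. For Stat3 these were Sun2, a protein of the inner nuclear membrane (Pearson r = 0.972), and Abca3 (0.886). Nfkb2 tracked Rras (0.957) and Serinc2 (0.955), and Rela tracked Dpm2 (0.955). For Tnfaip3 they were Rhpn2 (0.847) and Fam83e (0.838), for Nfkbia Cox17 (0.835) and Ccdc174 (0.803), and for Nfkb1 Smim20 and Naca (0.9 each). Relb tracked Sema6a (0.872) and 2210407C18Rik (0.865), and Socs3 reached only 0.804 with Gm26982 and 0.767 with Bloc1s4. Among the 8 genes themselves the closest pairs were Nfkb2 with Rela (0.813) and Nfkbia with Tnfaip3 (0.79).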

How the data were processed

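Single-cell libraries were made by Seq-Well S3, which captures the 3′ ends of transcripts of single cells in microwells. The authors deposited UMI counts per gene and cell for each library, not normalized, demultiplexed with bcl2fastq and aligned with STAR in the Drop-seq pipeline to mm10 (versions differ between the sources used here). The authors had removed cells of low quality and doublets, so the merged table served only as the list of kept cells and no doublet caller was run. The deposited gene lists came in a longer and a shorter form, and the 21833 shared genes were tested.

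The members, gene lists and tests were chosen with earlier results of these data known. UMI counts were summed per library, or per library and class with at least 20 cells, and tested with edgeR 4.0.16 in R 4.3.3 (quasi-likelihood, TMM, filterByExpr, time point as a factor). P-values are two-sided and Benjamini-Hochberg adjusted over all genes of a fit, with a threshold of 0.05, and SE are those of the unshrunk log2 coefficient. Classes came from Seurat 5.3.0 and sctransform 0.4.2 (3000 variable genes without the members and listed genes, 9 components, resolution 0.45) and markers that the study derived from these samples. Clusters were joined into classes after they had been seen. Other pathway genes are named where they passed over all cells or in the early stem-like cells with one sign at every time point. Alternatives were RLE factors, no filter, DESeq2 1.42.0, left-out days and replicates, a replicate block and other cell filters and class labels. Scaling to total UMIs, leaving out abundant genes, using days 2 to 6 alone, and the comparison of enterocyte with Paneth lineage-like cells were added after seeing the data. Library depth was 3458887 to 12433109 UMIs, which limits the precision for Socs3 and Tnfaip3 most. Some items are not reported here.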

Additional observations from a re-analysis of the deposited data

How the results depend on the processing

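Stat3, Nfkb2 and Tnfaip3 kept their direction and passed over all cells in each of 21 alternatives. Low counts of Socs3, Tnfaip3 and Relb limit precision within classes, most time points have 1 library per condition, and whether equal replicate numbers mark paired libraries is not known. With the replicate block 3956 genes and 5 of the 8 passed over all cells, and 280 and 0 at day 6, with a correlation of 0.363 between the deviations of same-numbered libraries over 2 pairs. The causes of the changes below were not tested.

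Numbers of genes that passed moved as follows. Without the abundant genes 3 of the 8 passed over all cells. With no filter on low counts 295 genes and 2 of the 8 passed in early stem-like cells, 357 in the comparison of late with early effects, 239 in that of other with stem-like cells, 824 at day 6, 102 genes and 1 of the 8 in enterocyte against Paneth lineage-like cells, and 3 of the 8 between control at day 6 and ENR+CV, for which cells with 1000 genes gave 2. DESeq2 called 19 genes in early stem-like cells and 56 for late against early. Total UMIs called 1 gene for late against early, 563 at day 6 and 4 pairs of a gene and a class. Log-normalized clustering called 8 genes for other against stem-like cells. Leaving out days or libraries gave 2094 (without day 3) to 3969 genes and 3 to 6 of the 8 over all cells, 35 to 172 genes in early stem-like cells, 0 to 164 genes (without day 6) and 0 to 1 of the 8 for late against early, 3398 to 4117 genes and 1 to 3 of the 8 against ENR+CV, and 1 to 57 genes at day 6.

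Signs turned only for log2 values that had not passed, except Rela. Over all cells total UMIs gave -0.11 for Socs3, -0.26 for Nfkb1 and -0.0214 for Rela, and Nfkb1 was -0.0045 with RLE factors, -0.0146 with no filter, -0.0037 with DESeq2, -0.13 without abundant genes and -0.0432 to 0.0177 with libraries or days left out. In early stem-like cells Socs3 was -0.32 with DESeq2, Nfkb1 -0.0509 in stem III-like cells alone, -0.0363 with marker scores, -0.0461 with log-normalized clustering and -0.0048 to 0.16 with days left out, and Relb -0.33 to 0.071. For late against early, total UMIs gave -0.17 for Nfkb1, -0.15 for Nfkb2 and -0.0508 for Rela, and left-out days gave -0.42 to 0.0866 for Stat3 and -0.0354 to 0.27 for Nfkb2. For other against stem-like cells Socs3 was 0.0267 and Rela 0.0805 with log-normalized clustering, Nfkbia -0.098 with total UMIs and -0.0307 with marker scores, and Nfkb1 -0.035 with total UMIs. Against ENR+CV total UMIs gave -0.058 for Stat3 and -0.0544 for Relb, and left-out libraries -0.22 to 0.0659 for Socs3 and -0.20 to 0.27 for Relb. At day 6 total UMIs gave -0.32 for Socs3, -0.22 for Nfkbia, -0.39 for Nfkb1, -0.17 for Rela and -0.10 for Relb, Nfkb1 was -0.0057 with no filter and -0.0204 with cells of 1000 genes, and left-out libraries gave -0.0143 to 0.16 for Socs3 and -0.0126 to 0.02 for Nfkb1. Enterocyte against Paneth lineage-like cells gave -0.0262 for Nfkb1 with total UMIs.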
